A study of Sus scrofa with 6 samples.

Results

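The lines compared are PA_1 and PA_3, a pair of pig (Sus scrofa) embryonic stem cell lines derived from parthenogenetic embryos. The 4 libraries of these lines were taken by the cell line that their labels name, from 6 libraries in all, with 2 libraries each for PA_1 and PA_3. The other 2 libraries are from IVF_1, a line from an embryo fertilised in vitro, and they are given beside the results as an outside line that enters no contrast. The labels give all lines the genotype WT, the cell type embryonic stem cells and the medium name FIW, and they name no other treatment. Each line is 1 derivation, so a difference between PA_1 and PA_3 is one between lines, and nothing in the labels says whether the libraries of a line came from separate cultures. The p-values then measure the spread between libraries, which may be technical.

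A parthenogenetic embryo arises from an egg that is activated without sperm, so its chromosomes are maternal by descent. Pig embryonic stem cells resemble the epiblast, the founder tissue of the embryo proper. They depend on transcription factors such as POU5F1 and NANOG and on FGF and activin signalling. Stem cell lines of any origin can drift apart in culture, in their readiness to form neural or endodermal tissue, in stress responses and in genes silenced by DNA methylation.

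Library totals ran from 18208997 to 28575817 counts in the PA lines. Levels are given as CPM, the counts scaled to the size of each library, and fold changes as log2 of PA_1 over PA_3. Of 15197 genes tested with edgeR, 5595 passed an adjusted p of 0.05, which is 36.8%. In PA_1, 2712 were higher (17.8% of the genes tested) and 2883 lower (19%), and the median log2 fold change of all genes was 0.00. Most calls were of small size. Among the called genes 3152 differed by less than 1.5-fold, while 593 were at least 2-fold higher, 671 at least 2-fold lower, 120 at least 8-fold higher and 45 at least 8-fold lower. The libraries of the lines did not overlap for 10135 genes (66.7%). Without PA_3 replicate 2 the number called was 3406, with 1596 higher and 1810 lower. In bulk RNA, fewer cells of a type and less RNA per cell cannot be told apart.

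**Figure D1:**
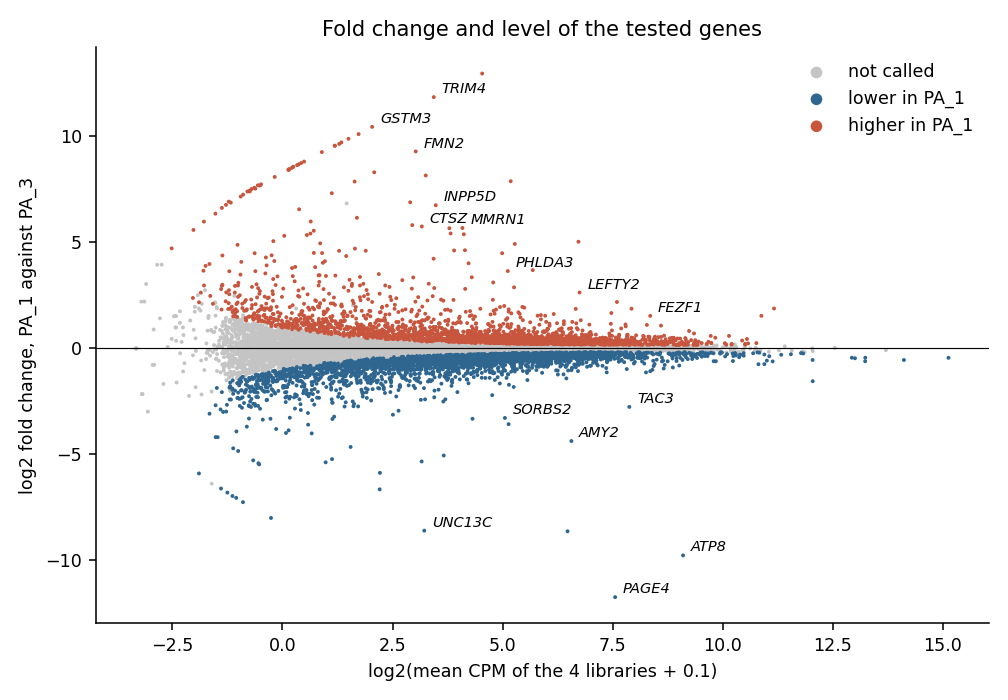
Fold change of PA_1 against PA_3 (y axis, log2) against mean level in the 4 libraries (x axis, log2 of CPM + 0.1), with 1 point per tested gene. The 2712 genes called higher and 2883 called lower lie on both sides of 0 at all levels; the fitted folds of genes with 0 counts in a line form the straight edges at low levels and are no measure of size.

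The markers of the labelled cell type were present in both lines. POU5F1, a core pluripotency factor, stood at 666 and 608 CPM in the PA_1 libraries and at 791 and 880 CPM in PA_3. DNMT3B, which sets new DNA methylation, stood at 1524 and 1629 CPM in PA_1 and at 1579 and 1582 in PA_3. NANOG, which holds cells in the pluripotent state, gave 25.9 and 35.3 CPM in PA_1 and 9.94 and 11.3 in PA_3. So POU5F1 was lower in PA_1 (log2 fold change -0.39, SE 0.071, adjusted p = 0.00041), NANOG was higher (1.51, SE 0.13, adjusted p = 2.6e-07), and DNMT3B overlapped between the lines (0.00, adjusted p = 0.97). Of 17 tested core pluripotency genes 6 were higher and 7 lower in PA_1, with a median log2 fold change of 0.16. LIN28B, a let-7 blocking RNA-binding protein, was higher (1.12), and PRDM14, a repressor that guards pluripotency, was lower (-0.87). Of 20 primed and formative genes 6 were higher and 9 lower (median -0.19), among them the higher retinoic acid carrier CRABP1 (14.1 CPM against 1.39, 3.35) and the lower OTX2 (389 CPM against 539, -0.47). SOX2 and SALL4 were not matched to a gene and are not analysed here.

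Markers of other cell types were also measured. For CDX2, a trophectoderm factor, 0 reads were counted in any library, and for TBXT, a primitive streak factor, 0 in PA_1 and 1 in PA_3, and GATA6 of the hypoblast stood at 0.231 CPM in PA_1 against 0.173 in PA_3. Of 7 tested trophoblast and amnion genes 4 were lower in PA_1 (2 without PA_3 replicate 2), and the summed level was 631 and 632 CPM in PA_1 and 746 and 855 in PA_3. Of 12 tested primitive streak and mesoderm genes 5 were lower (3 without PA_3 replicate 2) and 1 higher (0 without PA_3 replicate 1), with sums of 26.1 to 31.9 CPM in PA_1 and 33 to 36.9 in PA_3. Fibroblast genes summed to 1328 and 1441 CPM in PA_1 and 1396 and 1469 in PA_3. Of 24 tested, 8 were higher (5 without either PA_3 or either IVF_1 library) and 6 lower, and COL1A1 stood at 35.1 CPM in PA_1 against 35.8 in PA_3. Germ cell genes summed to 185 and 212 CPM in PA_1 and 118 and 120 in PA_3, with 1 of 10 tested higher, the receptor gene KIT (1.12), and 4 lower. KIT alone stood at 158 and 185 CPM in PA_1 and at 76.5 and 81 in PA_3. The order of the sums is therefore that of KIT, and the 4 lower members went the other way. Calls covered 57.1% of the trophoblast, 50% of the mesoderm, 58.3% of the fibroblast and 50% of the germ cell genes tested, against 36.8% of all genes. The part of other cells in the results below was not tested.

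A small set of genes was on in one line and off in the other. On means at least 1 CPM in each library of a line, and off means at most 3 counts over both libraries of the other. These genes were chosen by their levels, so their difference is a description. By this rule 38 genes were on in PA_1 and off in PA_3, which is 0.289% of the 13161 genes that reached the level in PA_1. In the other direction it found 4 genes, 0.0302% of 13244. Of the 38 genes, 24 had a symbol, 34 were protein coding and 3 were lncRNAs, the median level was 2.76 CPM, and 23 had 0 counts in PA_3. With the limit applied to 1 PA_1 library at a time, the 4 genes became 24 without PA_1 replicate 1 and 10 without PA_1 replicate 2. Just inside the level limit in PA_1 was CGAS at 1.05 CPM in its lower library and just outside was TBX22 at 0.981. In PA_3 these were GATA3 at 1.01 and ASB4 at 0.965, and 21 genes on the PA_1 side and 16 on the PA_3 side missed the rule with 4 to 10 counts in the other line.

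TRIM4, a ubiquitin ligase gene on chromosome 3 (7815718 to 7837546, Sscrofa11.1 as for all positions), stood at 20.6 and 22.3 CPM in PA_1 with 0 counts in PA_3, so it was at least 358-fold higher against a floor of 3 counts over the line. The next gene on that chromosome, the connexin gene GJC3 (7839147 to 7848761), stood at 2.31 and 2.45 CPM in PA_1 and also had 0 counts in PA_3. FMN2, which encodes an actin nucleator known from the meiotic spindle of mouse oocytes, stood at 17 and 15.2 CPM in PA_1 and had 1 count in PA_3, which is 0.124% of the PA_1 level (95% counting interval 0.00314% to 0.691%). MAGEL2, an imprinted gene of the Prader-Willi region on chromosome 1 (142448689 to 142454697), stood at 18.3 and 19.4 CPM in PA_1 with 3 counts in PA_3, or 0.318% (0.0656% to 0.93%). In all of these the PA_1 libraries lay close together and far above PA_3.

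Detoxifying enzymes were among these genes as well. GSTM3, a glutathione transferase, stood at 8.98 and 7.03 CPM in PA_1 and was at least 134-fold higher than in PA_3, where it had 0 counts. The oxidases FMO4 (4.61 and 4.09 CPM) and CYP2E1 (2.03 and 1.96 CPM) had 0 counts in PA_3 as well. GSTM3, CYP2E1 and TRIM4 belong to families with close copies, so reads could have been shared between members, and the counter's rule for such reads is not given in the sources used here.

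Receptors and guidance factors on in PA_1 alone of the PA lines included VIPR2, the receptor of vasoactive intestinal peptide, at 5.73 and 5.18 CPM with 0 counts in PA_3, at least 91.1-fold higher. SLC1A6, a glutamate transporter, stood at 4.91 and 4.8 CPM and was at least 81.1-fold higher. The death receptor gene FAS (2.75 and 2.02 CPM) had 1 count in PA_3, and the axon guidance gene SEMA3A (2.98 and 2.78 CPM) had 2. PAX2, a factor of the kidney and the optic stalk, stood at 3.9 and 4.36 CPM with 1 count in PA_3. The zinc finger gene ZNF175 (5.93 and 6.92 CPM, 0 counts), the chaperonin-like BBS10 (6.98 and 9.54 CPM, 1 count), the RNA-binding RALYL (6.13 and 5.89 CPM, 1 count) and the enamel protease MMP20 (4.1 and 4.63 CPM, 0 counts) followed the same pattern. The remaining 8 named genes were CDRT4, MEIOC, TMEM64, PMP2, LPO, SLITRK3, CD36 and CGAS, and their mean levels in PA_1 ran from 1.21 CPM for CGAS, the sensor of cytosolic DNA, to 5.25 for CDRT4. CDRT4 was the one on-off gene of those with a symbol that edgeR did not call (adjusted p = 0.16), and its IVF_1 libraries held 0 and 111 counts.

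An unnamed lncRNA on chromosome 2 (ENSSSCG00000049610, 68654512 to 68657904) had the highest level of the 38 genes, 49.2 and 43.1 CPM in PA_1 and 0 counts in PA_3. A lncRNA annotated on the opposite strand that overlaps it (ENSSSCG00000044985, 68654520 to 68660096) had 2.24 and 2.4 CPM and 0 counts. Without the counter's strand setting, reads of these overlapping genes cannot be told apart. These lncRNAs were 1 of 2 pairs of neighbouring on-off genes, the other being TRIM4 and GJC3, and the other on-off genes lay singly.

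The genes on in PA_3 and off in PA_1 were few. UNC13C, which primes synaptic vesicles for release, lies on chromosome 1 (117166283 to 117764668) and stood at 18.3 and 18.6 CPM in PA_3 with 2 counts in PA_1, or 0.227% of the PA_3 level (95% counting interval 0.0275% to 0.82%). SOX17, a factor of endoderm and germ cell precursors, stood at 1.22 and 1.07 CPM in PA_3, and GATA3, a factor of trophoblast and amnion, at 1.01 and 1.33 CPM, each with 1 count in PA_1. The level of the latter genes is near the limit of the rule.

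IVF_1 was not used to choose these genes. Of the 38 genes on in PA_1, 20 were also on in IVF_1, 4 were off and 14 lay between. TRIM4 reached 20.4 CPM in IVF_1, MAGEL2 100.3, FMN2 8.07, SLC1A6 6.09 and FAS 5.94, while MMP20 and PMP2 had 0 counts there. Of the 4 genes on in PA_3, SOX17 was on in IVF_1 (1.66 CPM), 2 lay between and 1 was off. UNC13C stood at 0.126 CPM in IVF_1.

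**Figure D2:**
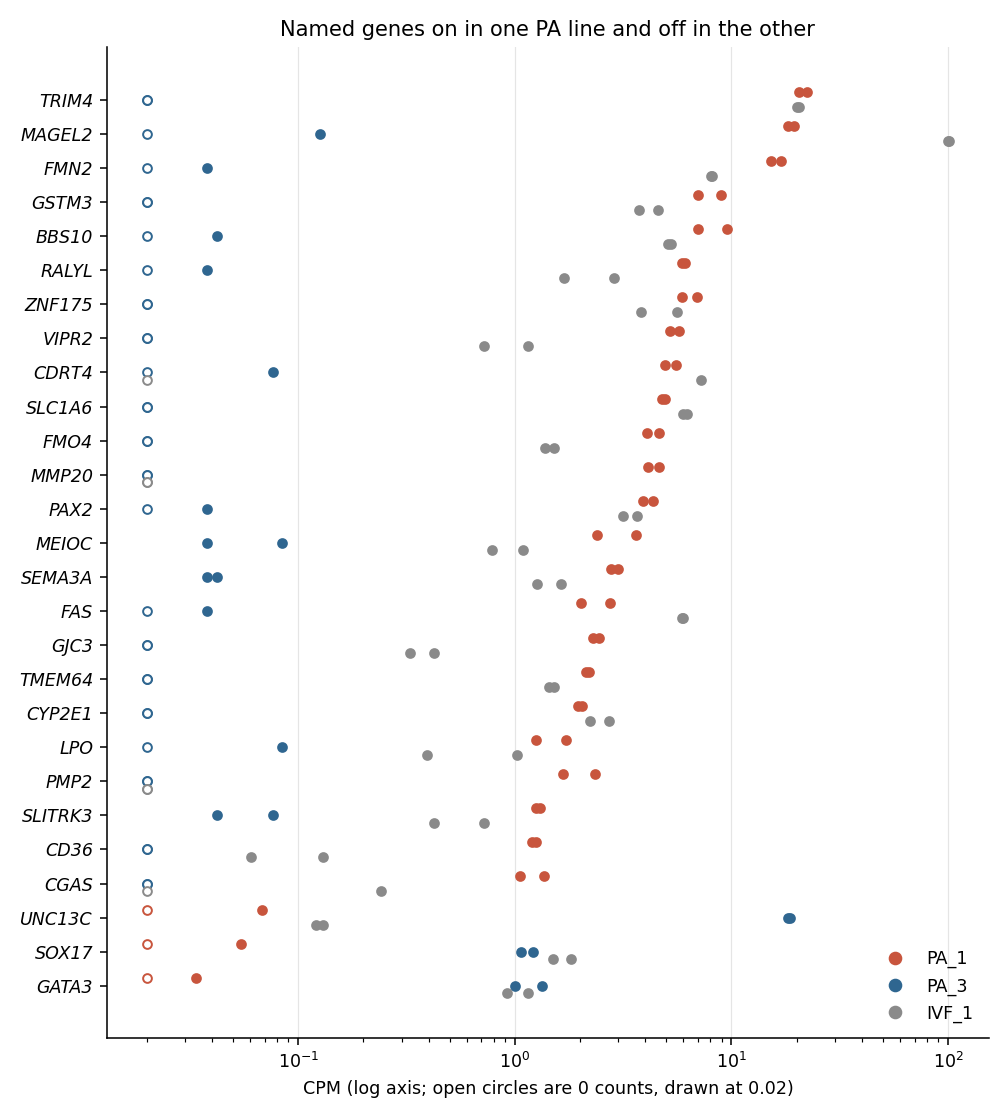
Level of the 27 named on-off genes in each library (x axis, CPM on a log axis), with 1 row per gene, 1 point per library and open circles for 0 counts at the left edge. In the upper 24 rows the PA_1 points lie at 1 CPM or more with PA_3 at or near 0 counts, and in the lowest 3 rows the order is reversed; the IVF_1 points lie beside PA_1 for TRIM4 and SLC1A6 and at 0 for MMP20 and PMP2.

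Some of the largest differences were in genes with more reads in PA_3 than the off limit allows, at levels under 1 CPM there. INPP5D, a lipid phosphatase of blood cells, stood at 25 and 18.9 CPM in PA_1 and at 0.21 and 0.19 in PA_3 (log2 fold change 6.75, SE 0.25, adjusted p = 1.3e-12). CTSZ, a lysosomal protease, stood at 18.8 and 16 CPM in PA_1 and at 0.168 and 0.457 in PA_3 (5.75, SE 0.24). MMRN1, a platelet and endothelial matrix protein, stood at 31.9 and 34.4 CPM in PA_1 and at 0.713 and 0.571 in PA_3 (5.68, SE 0.17). In each the PA_1 libraries were the high ones, and IVF_1 was nearer to PA_1, at 40.3 CPM for INPP5D, 29.1 for CTSZ and 18.4 for MMRN1. A gene model called LDHB on chromosome 2 (12988708 to 12990067) gave 199 and 210 CPM in PA_1 and 5.12 and 7.31 in PA_3. The symbol also stands on a gene on chromosome 5 with 1113 to 1417 CPM in the PA libraries, so reads could be shared and the level of the chromosome 2 model is uncertain.

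Lower in PA_1 were PAGE4, a cancer testis antigen gene on the X chromosome (43490120 to 43496656), at 0.102 and 0.109 CPM against 389 and 363 in PA_3 (-11.74, SE 0.15), with 201 and 200 CPM in IVF_1. PAGE4 has close relatives with which reads could be shared. CCHCR1 on chromosome 7, which encodes a coiled-coil protein, stood at 0.203 and 0.763 CPM in PA_1 and at 16.1 and 18.3 in PA_3 (-5.33, SE 0.26). MGAM, a starch-digesting enzyme of the gut, stood at 0.78 and 0.654 CPM in PA_1 and at 23.5 and 25.3 in PA_3 (-5.05, SE 0.17). For PAGE4, CCHCR1 and MGAM the line that stood apart was PA_1, since IVF_1 gave 15.1 CPM for CCHCR1 and 23.1 for MGAM.

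A further group was high in PA_3 alone. AMY2, an amylase gene, stood at 9.59 and 7.52 CPM in PA_1, against 179 and 181 in PA_3, with 17.2 and 21.5 in IVF_1 (PA_1 against PA_3 -4.37, SE 0.11), and amylase genes are near-copies whose reads could be shared. TAC3, the precursor of neurokinin B, stood at 56.6 and 64.7 CPM in PA_1, against 388 and 431 in PA_3, with 91.6 and 98.2 in IVF_1 (-2.76, SE 0.082). SORBS2, a cytoskeletal adaptor, stood at 6.37 and 5.89 CPM in PA_1, against 62.2 and 57.9 in PA_3, with 3.62 and 5.3 in IVF_1 (-3.28, SE 0.13). The matrix gene TNXB was also highest in PA_3, with a mean of 5.36 CPM in PA_1 against 64.8 in PA_3 and 9.91 for IVF_1 (-3.57). That the PA_1 and PA_3 libraries do not overlap was required for naming these genes, and they were grouped here by their IVF_1 level.

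Among genes at 100 CPM or more, the matrix proteoglycan VCAN (262 and 277 CPM in PA_1, 91.6 and 77.9 in PA_3, 1.67), the retinoic acid related GREB1L (1.62), the forebrain factor FEZF1 (1.54) and the secreted kinase PKDCC (1.25) were higher in PA_1. RN18S, a gene model of ribosomal RNA that poly(A) selection should remove, stood at 2857 and 2737 CPM in PA_1 and 834 and 1092 in PA_3 (1.54). Its call was lost without either PA_1 library. The growth factor gene PDGFD (-1.22) and HSP70.2 (-1.23), a heat shock gene with near-identical copies, were lower.

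Developmental regulators differed in sets. The lists were chosen with earlier results of these data known, so their counts are a description. The sets also share members, since PAX6, SIX3, SIX6 and LHX2 count both in the eye field list and in a family below. Of 20 tested eye field and forebrain genes 12 were higher in PA_1, 11 of them at least 2-fold, and 0 were lower, with a median log2 fold change of 1.29. PAX6, the master regulator of eye development, stood at 71.8 and 72.6 CPM in PA_1 and at 0.21 and 0.381 in PA_3. LHX2, a LIM homeobox factor of the eye field and cortex, stood at 30.7 and 24.1 CPM against 0.42 and 0.837. SIX3 (108 and 101 CPM against 48 and 44, 1.19) and FEZF1 (497 and 475 against 186 and 149, 1.54) kept substantial levels in PA_3, so the set did not move as 1 block. HESX1, an early forebrain repressor chosen here after its values were seen, overlapped between the lines at 108 and 150 CPM in PA_1 and 118 and 100 in PA_3 (adjusted p = 0.26). Of 10 tested members of the PAX family and the family of SIX3, 6 were higher and 1 lower (0 lower without either PA_3 library), with a median of 1.14.

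Of 10 tested SOX genes 6 were higher in PA_1, with a median of 0.83. They were SOX9 (58.9 CPM against 31.1, 0.92), SOX21 (14.4 against 5.32, 1.45), SOX5 (1.96), SOX10 (2.12) and, named after their values were seen, SOX6 (1.98) and SOX8 (0.74), factors known from neural, neural crest and cartilage development. SOX17 and SOX13 were lower, and the call of SOX13, which was named after its value was seen, was lost without PA_1 replicate 1 and without each PA_3 or IVF_1 library. Of 6 tested LIM homeobox genes 2 were higher, LHX2 and LMX1B (1.43), and 3 lower, with LMX1A, a factor of the roof plate and of dopamine neurons, at 2.91 CPM against 9.6 (-1.73).

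Of 27 tested forkhead genes 9 were lower, 6 of them at least 2-fold, and 5 higher (3 without PA_3 replicate 2), with a median of -0.01. FOXA2, a factor of endoderm and floor plate, stood at 4.41 and 3.71 CPM in PA_1 and at 18.8 and 24.7 in PA_3 (-2.40). FOXA1, its close relative, stood at 0.678 and 1.04 CPM against 5.92 and 5.14 (-2.74). FOXB1, a factor of the hypothalamus and midbrain, stood at 102 and 104 CPM against 220 and 232 (-1.13), with FOXB2 (-3.22) and FOXN4 (-2.06) also lower. In IVF_1, FOXB1, FOXB2 and FOXN4 stood below PA_3, at 47.2, 0.438 and 1.14 CPM. The floor plate and endoderm signal SHH was low in all lines and lower in PA_1 (0.095 CPM against 1.52, -3.80, SE 0.55). The hypoblast and endoderm list had 9 members lower and 2 higher in PA_1 of 19 tested (median -0.30). The list's summed level was 1115 to 1173 CPM in PA_1 and 1301 to 1339 in PA_3. FOXA2, FOXA1, SOX17 and GATA4, at means of 21.7 CPM or less in PA_3, are a small part of these sums. APOA1 of the list stood at 45.4 CPM against 73.4, and which members carry the difference of the sums was not tested. GATA4 (0.055 CPM against 0.714) and SOX17 were among the lower members of the list, and FRZB, a secreted WNT antagonist, was higher (90.7 CPM against 43.2, 1.07). The share called was 51.9% for forkhead genes, 57.9% for the endoderm list and 55% for the neural list that follows, against 36.8% of all genes. Of 20 tested neural and neuronal genes 3 were higher, with DCX, a microtubule protein of young neurons, at 4.82 CPM against 1.12, and 8 were lower (5 without PA_3 replicate 1), with UNC13C the extreme.

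HOX genes, which pattern the trunk, were at low levels. Of 14 tested 7 were higher in PA_1 and 0 lower, with a median of 1.06, and HOXC6 was the highest at 5.79 CPM against 1.99 (1.51, adjusted p = 5.2e-05). The number higher was 4 without PA_1 replicate 2, 3 without PA_3 replicate 1 and 4 without PA_3 replicate 2, and 2 with DESeq2.

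Signalling genes followed their own patterns. NODAL, a ligand of the epiblast, stood at 6.41 and 6.76 CPM in PA_1 and at 1.18 and 1.67 in PA_3 (2.19, SE 0.2, adjusted p = 3e-07). Its feedback inhibitor LEFTY2 stood at 214 and 156 CPM against 25.9 and 33.5 (2.64, SE 0.2, adjusted p = 0.00017). TGIF1, a repressor in the same pathway, was lower (210 CPM against 443, -1.08). The list of NODAL and activin targets as a whole had 4 higher and 4 lower of 14. Among FGF and ERK targets 3 of 21 were higher (5 without either PA_1 library), with the inhibitor SPRY1 at 1.46, and 6 were lower, with the phosphatases DUSP6 at -0.69 and DUSP4 at -0.93. Of that list 42.9% was called. The DUSP family, which shares members such as DUSP6 with it, had 6 of 20 tested lower and 0 higher. That is 30% called, against 36.8% of all genes, and the 0 did not hold without either PA_1 library.

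In the Hedgehog pathway, the target and effector GLI1 was lower in PA_1 (12.5 and 13.4 CPM against 26.5 and 28.3, -1.09), while GLI3, which acts mainly as a repressor, was higher (98 and 87.7 against 34 and 30, 1.54). The list of Notch and Hedgehog genes had 6 higher and 4 lower of 22, or 45.5% called against 36.8% of all genes. WNT genes were balanced at 8 higher and 8 lower of 30 (5 lower without PA_3 replicate 1), with the receptor FZD7 lower (263 CPM against 438, -0.74) and the antagonist SFRP2 higher (0.77). Ephrins and their receptors had 7 higher and 4 lower of 20, led by EFNB2 (35.2 CPM against 9.65, 1.87) and EFNB1 (35 against 15.8, 1.14). The share called was 55% for this family and 53.3% for the WNT genes.

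Cadherins, protocadherins and epithelial junction genes had more members higher than lower in PA_1. Integrins had 3 higher (fewer without either PA_3 or either IVF_1 library) and 6 lower of 21 (median -0.18). That is 42.9% of the integrins called, against 36.8% of all genes. Of 25 tested cadherins 16 were higher, 6 of them at least 2-fold, and 1 was lower (2 without PA_1 replicate 1), with a median log2 fold change of 0.46. CDH6, a cadherin of kidney and neural crest, stood at 33.5 and 37.9 CPM in PA_1 and at 3.61 and 3.35 in PA_3 (3.35, SE 0.13, adjusted p = 1.9e-12). CDH7 stood at 21.1 and 19.5 CPM against 1.18 and 0.989 (4.23, SE 0.17). The epithelial CDH1 was higher by less, 464 and 515 CPM against 328 and 318 (0.60). Of 16 tested protocadherins 8 were higher and 3 lower (median 0.40). PCDH19 on the X chromosome (3.41 CPM against 0.558, 2.58) and PCDHAC2 of the alpha cluster (4.5 against 0.175, 4.60) were higher, and PCDH15 (4.73 against 18.4, -1.95) and PCDHGB5 of the gamma cluster (5.74 against 18.5, -1.66) were lower. Members of the clusters share exons, so their counts depend on how shared reads were assigned.

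Of 34 epithelial adhesion and junction genes 19 were higher and 3 lower, with a median of 0.27. The number lower was 6 without PA_1 replicate 1 and 1 without PA_3 replicate 2. ESRP1, a splicing regulator of epithelia, stood at 114 and 124 CPM in PA_1 and at 48.6 and 49 in PA_3 (1.28). The tight junction gene CLDN7 (41.4 CPM against 19.4, 1.09) and EPCAM, an adhesion molecule of epithelial and pluripotent cells (213 against 131, 0.70), moved with it.

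Targets of p53, the DNA damage response factor, were more often higher than lower in PA_1. Of 25 tested 12 were higher, 6 of them at least 2-fold, and 3 lower (5 without PA_1 replicate 1), with a median of 0.26 and a summed level of 1310 and 1314 CPM in PA_1 against 1028 and 1004 in PA_3. CDKN1A, the p21 cell cycle inhibitor, stood at 18 and 11.2 CPM in PA_1, against 0.126 and 0.114 in PA_3, with 51.6 and 48.6 in IVF_1. PHLDA3, an inhibitor of AKT whose gene model is annotated as a lncRNA, stood at 70.3 and 57.9 CPM, 4.82 and 5.4, and 149 and 143 in the same order (PA_1 against PA_3 3.65, SE 0.12, adjusted p = 2.5e-13). The nuclease gene AEN stood at 54.9 and 55 CPM, 15 and 15.6, and 85.2 and 71.8 (1.84, SE 0.097). In these genes PA_3 was the lowest line and IVF_1 the highest.

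ZMAT3 (10.1 CPM against 2.91, 1.79), TP53INP1 (142 against 62.4, 1.18) and FAS were also higher. PMAIP1, the proapoptotic NOXA, went the other way at 7.51 CPM in PA_1, with 19.5 in PA_3 and 19.9 in IVF_1 (-1.42, SE 0.15). MDM2, a ubiquitin ligase of the same list named after its value was seen, overlapped between the lines (37.7 and 44.9 CPM against 41.5 and 38.9, adjusted p = 0.82).

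**Figure D3:**
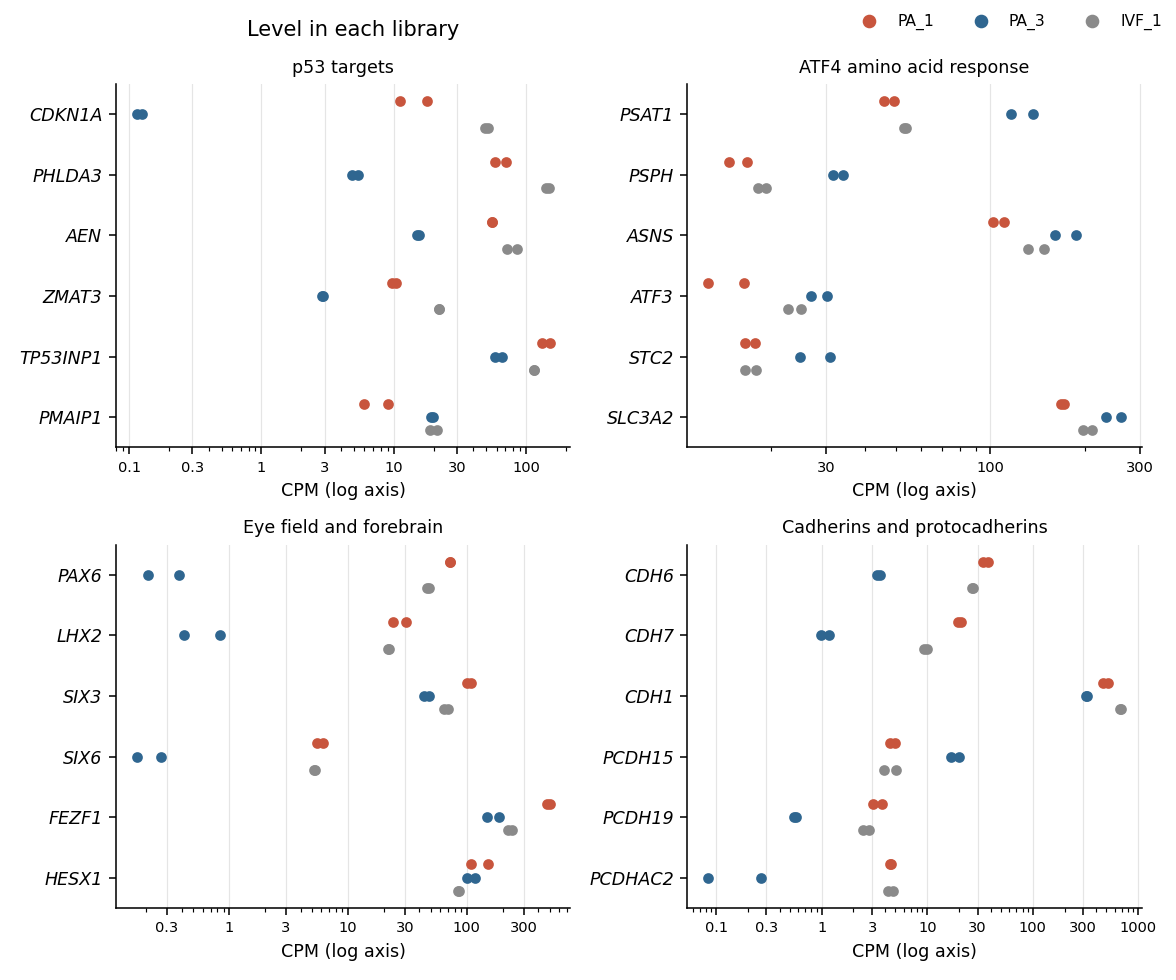
Level of 24 genes in each library (x axes, CPM on a log axis), in 4 panels by list or family, with 1 point per library. PA_3 lies lowest for CDKN1A, PHLDA3, PAX6, LHX2, CDH6 and CDH7 and highest for PSAT1, PSPH, ATF3 and PCDH15.

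The amino acid, glycolysis, hypoxia and mitochondrial lists each had more members lower than higher in PA_1. Of 33 genes of the ATF4 amino acid response 23 were lower and 1 higher (2 higher without PA_1 replicate 1), with a median of -0.41, and 14 were lower without PA_3 replicate 2. PSAT1, an enzyme of serine synthesis, stood at 45.8 and 49.5 CPM in PA_1 and at 117 and 137 in PA_3 (-1.42, SE 0.085, adjusted p = 1.6e-09). PSPH, which catalyses the last step of that pathway, stood at 14.7 and 16.8 CPM against 31.6 and 34.1 (-1.06), and asparagine synthetase ASNS at 102 and 111 against 161 and 187 (-0.71). The transport partner SLC3A2 (-0.54) and the stress factor ATF3 (-0.99) were lower too. The stress gene NUPR1, outside the list, stood at 2.75 and 2.73 CPM in PA_1, against 14.1 and 15.4 in PA_3, with 2.9 and 3.21 in IVF_1 (-2.43, SE 0.15).

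Of 29 glycolysis and lactate genes 16 were lower (10 without PA_3 replicate 2) and 2 higher, with a median of -0.30. PDHA1, the pyruvate dehydrogenase subunit, stood at 318 and 333 CPM in PA_1 and at 616 and 598 in PA_3 (-0.90, SE 0.063), and ENO2 at 75.5 and 56.5 against 119 and 131 (-0.91). PDK4, a kinase that switches pyruvate dehydrogenase off, was one of the higher genes, at 15.5 and 20.2 CPM against 3.65 and 2.78 (2.47, SE 0.18). Of 29 hypoxia response genes 12 were lower and 4 higher (7 higher without PA_1 replicate 1). VEGFA, an angiogenic growth factor, stood at 7.49 and 6.6 CPM against 20.2 and 23.2 (-1.61, SE 0.13).

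Transcripts of the mitochondrial genome made up 7.97% and 9.65% of counts in PA_1 and 12.2% in each PA_3 library. Of its 13 protein genes 11 were lower in PA_1 and 0 higher (1 without PA_1 replicate 1), with a median of -0.55. ND1, a complex I subunit, stood at 1925 and 2377 CPM in PA_1, against 6279 and 6295 in PA_3, with 2142 and 2297 in IVF_1 (-1.55, SE 0.086), while COX3 stood at 13050 and 15770 CPM in PA_1 and at 20460 and 21650 in PA_3 (-0.55). ATP8 stood at 1.29 and 1.2 CPM in PA_1 and at 1154 and 1035 in PA_3. The neighbouring ATP6, which ATP8 overlaps and which is named for that reason, differed by less (-0.44). How reads in the overlap were assigned is not known, and its part in the ATP8 value was not tested. Outside the protein genes, the mitochondrial rRNA gene ENSSSCG00000018061 went the other way, at 230 CPM in PA_1 against 128 in PA_3 (0.85, adjusted p = 0.0018). The rRNA gene ENSSSCG00000018063 was not called (260 CPM against 248, 0.07, adjusted p = 0.56). With the mitochondrial genes left out of the scaling, 5592 genes were called. Nuclear genes of the respiratory chain had 4 higher and 4 lower of 28 (28.6% called, against 36.8% of all genes), with a median of -0.06. Without a PA_3 library the higher were 1 or 2, without a PA_1 library the lower were 6 or 8, and without PA_3 replicate 2 they were 2.

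Of 74 cytosolic ribosomal protein genes 34 were lower in PA_1 and 2 higher, with a median of -0.17. That is 48.6% called, against 36.8% of all genes. RPLP1, a stalk protein, stood at 1189 and 1083 CPM in PA_1 and at 1486 and 1542 in PA_3 (-0.41). The number lower was 22 without PA_3 replicate 1 and 17 without PA_3 replicate 2, and the number higher was 1 without PA_3 replicate 1. RPS27L, a p53 target in human cells, was one of those higher (47.1 CPM against 28, 0.75).

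Imprinted genes varied between lines that are both maternal by descent. Of 17 tested genes expressed from the paternal allele in other studies, 6 were higher and 3 lower in PA_1, with a median of 0.00. MEST, a hydrolase gene, stood at 48 and 50.6 CPM in PA_1, against 6.25 and 5.18 in PA_3, with 119 and 117 in IVF_1. NNAT stood at 0.678 and 0.818 CPM in PA_1 and at 2.22 and 2.21 in PA_3, and DLK1 at 2.14 and 1.85 against 0.42 and 0.304, with IVF_1 at 1008 and 186 CPM, so for NNAT and DLK1 both PA lines were far below IVF_1 and differed from each other at low levels. IGF2, a growth factor gene, stood above IVF_1 in both, at 4.44 and 4.09 CPM in PA_1 against 11.3 and 11.8 in PA_3, with IVF_1 at 3.5 and 3.6. The maternal-allele list of 19 tested genes had 7 members lower and 2 higher, and without a library the number lower ran from 3 (PA_3 replicate 2) and 4 (PA_1 replicate 2) to 6. The number higher was 1 without either PA_3 library. The share called was 52.9% for the paternal-allele list and 47.4% for the maternal-allele list, against 36.8% of all genes. Alleles were not measured.

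Of 22 tested genes of DNA methylation and imprint protection 7 were higher and 1 lower in PA_1 (3 higher without PA_3 replicate 2), which is 36.4% called, near the 36.8% of all genes. DNMT1, the maintenance methyltransferase, stood at 303 and 287 CPM in PA_1 and at 211 and 213 in PA_3 (0.48), and its partner UHRF1 at 179 and 161 against 113 and 103 (0.65). ZFP57, known as a guard of imprints but a pseudogene in this annotation, stood at 10.1 and 8.5 CPM against 1.8 and 2.66 (2.06). Zinc finger genes as a family had 60 higher and 32 lower of 305 tested, which is 30.2% called against 36.8% of all genes. Their number higher was 91 without PA_1 replicate 1 and 31 without PA_3 replicate 2, where 19 were lower. ZFP30 (55.7 and 55.3 CPM against 18.6 and 16.7, 1.65) and ZNF333 (18.4 and 17.8 against 6 and 5.78, 1.62) were higher, and ZNF354B was lower (10.5 and 8.61 against 26.6 and 26.5, -1.46).

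Cytochrome P450 genes had 12 lower and 4 higher of 25 (2 higher without PA_3 replicate 1), with a median of -0.59, and CYP26A1, which degrades retinoic acid, stood at 267 and 286 CPM in PA_1 and at 541 and 523 in PA_3 (-0.94, SE 0.064). S100 and annexin genes had 7 lower and 0 higher of 19, with S100A11 among the lower (111 CPM against 197, -0.82). That is 36.8% called in either direction, the same as the share of all genes. The 0 did not hold without PA_1 replicate 1 or without PA_3 replicate 2. Glutamate and GABA receptors had 6 higher (fewer without PA_3 replicate 2) and 11 lower of 41, or 41.5% called against 36.8% of all genes. GABRE, a GABA receptor subunit, was higher (16.1 CPM against 3.34, 2.26) and the glutamate receptor GRM8 lower (5.19 against 15.2, -1.55). The share called was 64% for the P450 genes and 54.5% for the semaphorin group that follows. Semaphorins, plexins, netrins and slits had 11 higher (7 without PA_3 replicate 2) and 13 lower of 44, with PLXNA2 lower (49.6 CPM against 102, -1.04).

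TRIM genes had 11 higher and 5 lower of 41, and 4 and 3 without PA_3 replicate 2. That is 39% called, near the share of all genes. Beside TRIM4, the antibody receptor TRIM21 stood at 1.19 and 0.872 CPM in PA_1 with 0 counts in PA_3, and at 4.69 in IVF_1. Of 23 tested interferon response genes 3 were higher (5 without PA_1 replicate 1) and 6 lower (3 without PA_3 replicate 2), or 39.1% called. HERC5, an ISG15 ligase, was higher (299 CPM against 145, 1.04), and the antiviral OAS2 (19.5 against 43, -1.15) and IFITM1 (11.3 against 25.4, -1.16) were lower.

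**Figure D4:**
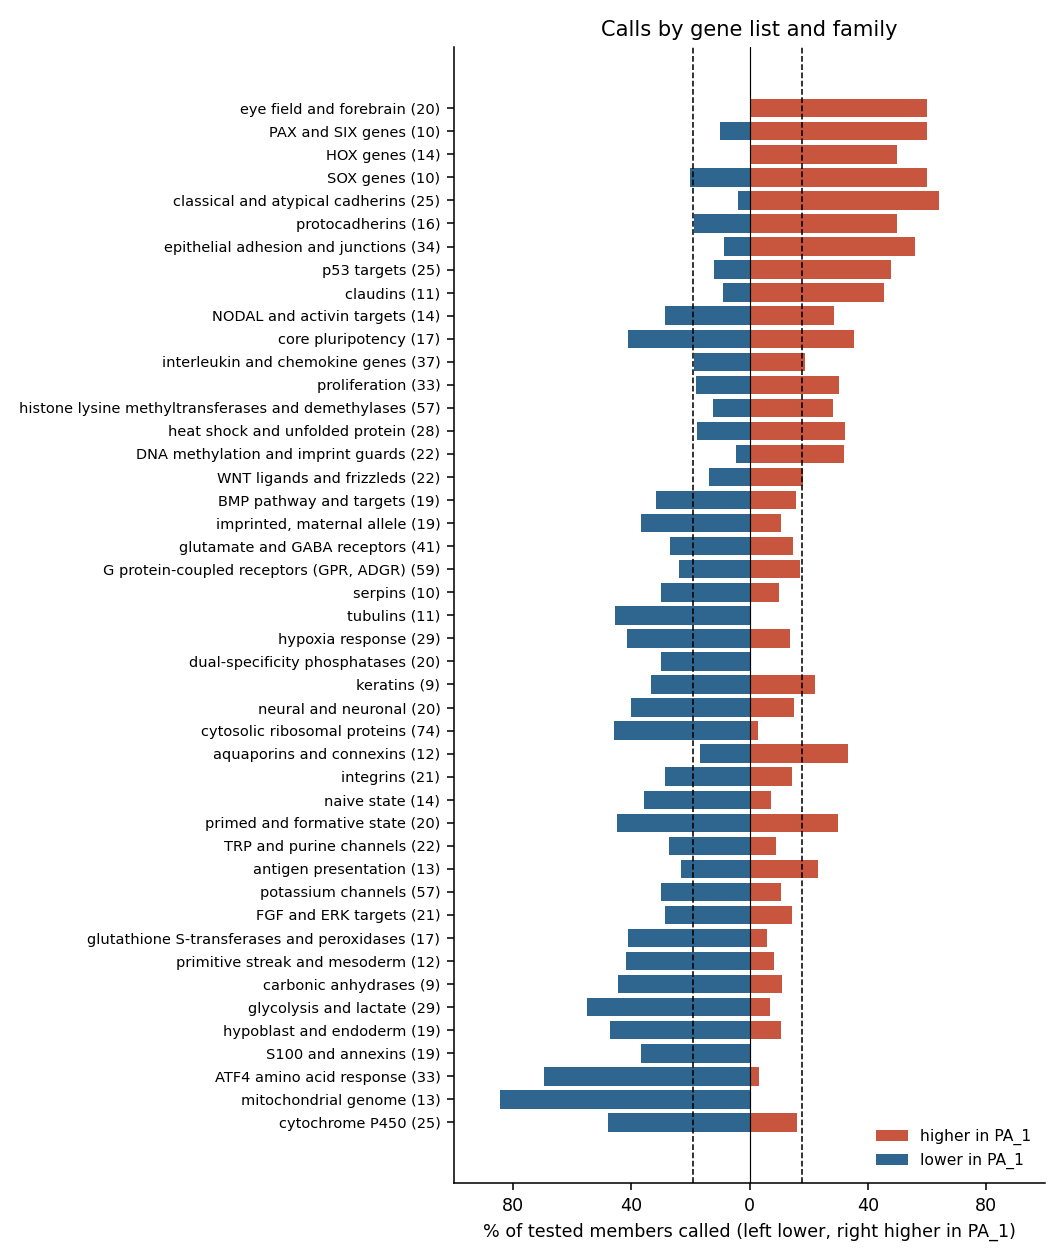
Share of tested members called lower (left) and higher (right) in PA_1, in percent, for the lists and families with at least 9 tested members and a median log2 fold change beyond 0.12 in size, ordered by that median, with the number tested in brackets. Dashed lines mark the shares over all genes, 19% lower and 17.8% higher; the eye field list is at the top with the cadherins near it, and the ATF4 list, the mitochondrial genome and the P450 genes at the bottom.

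Differing genes lay on all chromosomes. Chromosomes 1 to 18 and X had between 33% and 40.4% of tested genes called, with medians from -0.04 on X to 0.04 on chromosome 15. Among windows of 50 neighbouring tested genes, the lowest and highest 1% lay beyond -0.21 and 0.18. The highest median was 0.36 on chromosome 2 (90436636 to 108536881), with 23 of 50 genes higher and 4 lower. It holds VCAN and, named after their values were seen, the limb gene LIX1 (5.01 CPM in PA_1 against 0.24) and the neural receptor gene NR2F1 (2.95 against 0.198). The lowest was -0.35 on chromosome 6 (52695640 to 54211156), with 23 of 50 lower and 5 higher.

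In windows of 25 genes the lowest median was on the X chromosome, -0.73, between PIR and PDHA1 (11934161 to 15718904), where 18 of 25 tested genes were lower in PA_1 and 1 was higher. The genes of this run were named after their values were seen. GRPR, the receptor of gastrin-releasing peptide, stood at 9.72 CPM in PA_1, with 44.4 in PA_3 and 16.7 in IVF_1 (-2.21). The splicing factor gene ZRSR2 stood at 14.7, 41.8 and 15.5 CPM (-1.49), the chromatin subunit gene RBBP7 at 321, 479 and 299 (-0.58), and REPS2 at 152, 299 and 147 (-0.98). SCML1 and RAI2 within the run were not called (adjusted p = 0.85 and 0.63). For GRPR, ZRSR2, RBBP7 and REPS2, IVF_1 lay nearer to PA_1 than to PA_3. For ADGRG2 (33.6 CPM in PA_1, 58.4 in PA_3, 70.5 in IVF_1), TXLNG (40.5, 53.2 and 54 CPM) and AP1S2 (572, 738 and 667 CPM) it lay nearer to PA_3. Over the whole chromosome 114 of 608 tested genes were higher and 131 lower.

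**Figure D5:**
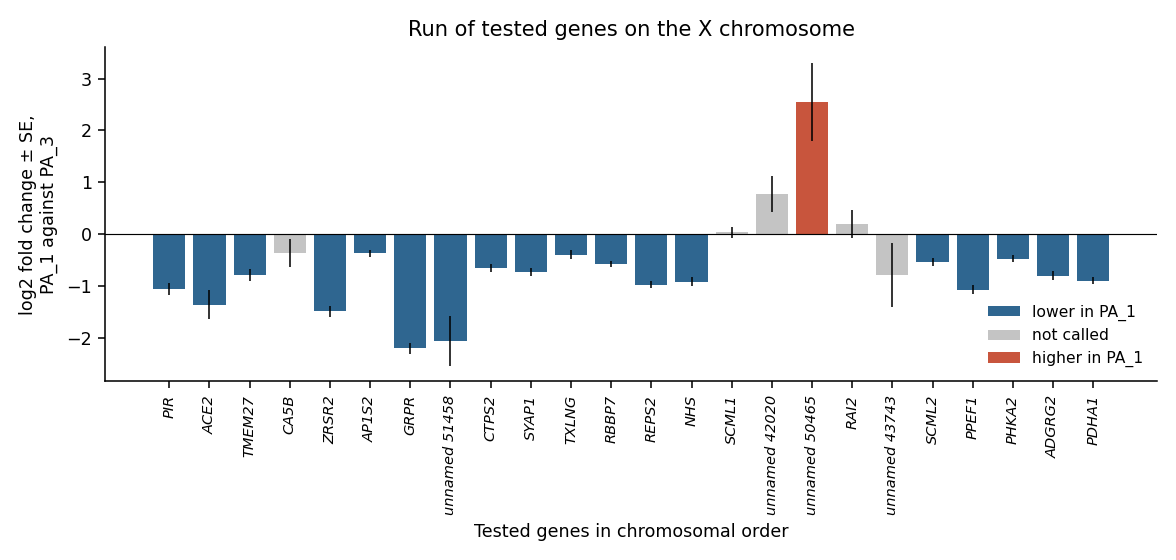
Log2 fold change of PA_1 against PA_3 with its SE (y axis) for 24 of the 25 tested genes between PIR and PDHA1 in chromosomal order (x axis). Of the bars 18 are called lower, 1 is called higher and 5 are not called, and GRPR has the lowest value among the named genes, -2.21.

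A pair of unnamed lncRNA genes on the X chromosome, chosen after their values were seen, lay between CHIC1 and RLIM, in the interval that holds the X inactivation centre in human and mouse. ENSSSCG00000044599 (59283918 to 59286152) stood at 95.4 CPM in PA_1, with 7.35 in PA_3 and 123 in IVF_1 (3.69, adjusted p = 1.1e-13). ENSSSCG00000049776 (59288879 to 59293232) stood at 35.1, 2.16 and 46.5 CPM (4.02, adjusted p = 7.5e-13). The flanking CHIC1 did not pass the test (16.1 CPM against 14.6, adjusted p = 0.4), and neither did RLIM (50.6 against 50.6, adjusted p = 0.99). Reads were also counted on 25 tested gene models of the Y chromosome in every library, at 222 to 225 summed CPM in PA_1, 272 to 285 in PA_3 and 253 to 258 in IVF_1. The PA lines are maternal by descent and so have no Y chromosome by design, and their counts on these models are no measure of Y-linked genes. How many of these reads come from related X-linked genes was not tested.

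Across the called genes, the level of IVF_1 was compared with both PA lines as the distance on log2(CPM + 0.1). IVF_1 was nearer to PA_1 for 4125 of 5595 called genes, which is 73.7%. Among genes at least 8-fold higher in PA_1 this held for 94 of 120, and among those at least 8-fold lower for 26 of 45. PAGE4, MGAM and CCHCR1 were among the genes where IVF_1 was nearer to PA_3. The lines differ in library depth and in the mitochondrial share as well, and the part of these in the counts was not tested.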

How the data were processed

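Bulk RNA was sequenced from 2 libraries per line, prepared with a stranded poly(A) kit per the labels' protocols. The authors deposited raw read counts per gene; trimming with cutadapt 2.8, alignment with STAR 2.7.1a and the build Sscrofa11.1 are named per the submitters' processing notes, while no source used here names the counter, the annotation or how strand was handled. The authors' deposited TPM values were not used for any test. The table's 54 per-sample columns of other samples were not used. Of 31908 genes, 18285 had a symbol, and 87 symbols stood on more than 1 gene.

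Counts of all 6 libraries were fitted with edgeR 4.0.16 in R 4.3.3 (quasi-likelihood test, TMM scaling, filterByExpr), which tested 15197 genes with 3 residual degrees of freedom and a biological coefficient of variation of 6.11%. Including IVF_1 serves the estimate of spread. P-values were adjusted by Benjamini-Hochberg over all genes tested, with a threshold of 0.05. The fit was also run on data simulated with the same dispersion for all genes and lines. Those data do not carry the unequal spread of the lines given below, so they do not test the calls under it. With 2 libraries against 2, an exact permutation test cannot go below 0.333. Intervals and floors (3 counts) cover counting error only. Libraries of a line differed beyond counting noise (chi-square per degree of freedom 11.5 in PA_1, 4.27 in PA_3 and 2.78 in IVF_1).

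Named genes are the 15 with the largest fold in each direction at 5 CPM or more and the 10 at 100 CPM or more. Both sets were drawn from called genes with a symbol whose PA_1 and PA_3 libraries did not overlap. Also named are every on-off gene with a symbol, up to 5 called members with the smallest adjusted p from each list and family, and fixed marker genes. Members and lists were chosen with earlier results of these data known, and family patterns were corrected for wrong matches once the files could be read. Alternatives were DESeq2 1.42.0, other scalings and filters, a minimum fold and leaving out each library. Results for a few genes are not reported here.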

Additional observations from a re-analysis of the deposited data

How the results depend on the processing

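A test against a minimum of 1.5-fold called 984 genes, 465 higher and 519 lower. It lost 781 of the 1077 called genes that were followed through the settings. Leaving out each library in turn gave 3406 to 6488 called genes, 1596 to 3209 higher and 1810 to 3279 lower, with the lowest values without PA_3 replicate 2. DESeq2 called 4109 genes, the PA libraries alone 4929, RLE scaling 5589 and no filter 5930. None of the 1077 called genes followed reversed under any of these settings, 603 were called in every setting other than the minimum fold, and 474 were lost in at least 1. The on-off limits set the on-off counts. With the off line at 0 counts, 23 genes were on in PA_1 (11 of them on in IVF_1) and 1 in PA_3. With the off line at 10 counts or fewer they were 59 and 20, and with the on line at 5 CPM they were 9 (8 on in IVF_1) and 1. Without each library 43 to 53 genes were on in PA_1, 20 to 24 of them on in IVF_1, and 5 to 24 in PA_3. The on or off limit of the line that lost a library then applied to 1 library. The highest and lowest window medians were 0.377 and -0.733 for 25 genes and 0.166 and -0.260 for 100 genes. The mitochondrial genome list could not be computed with its genes left out.

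Deviations of libraries with the same replicate number correlated at -0.136 between PA_1 and PA_3. That gives no sign of pairing by number, but with a single replicate difference per line it cannot decide the question. Whether libraries of different lines shared a batch was not tested. A replicate block gave 5461 called genes, and 4161 in the PA libraries alone against 6189 with crossed numbers, a pairing chosen after seeing the data.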
